A study of Mus musculus with 18 samples.

Results

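The nascent RNA of 10 genes of the nuclear envelope and of chromatin condensation was followed through 5 stages of red cell formation in the mouse fetal liver. The genes were the lamins Lmna, Lmnb1 and Lmnb2, the lamin-binding membrane proteins Lbr and Tmpo, the export receptor Xpo7, the histone methyltransferase Setd8 (now Kmt5a) and the deacetylases Hdac2, Hdac5 and Hdac6. They were taken by symbol, each matched 1 row of the count table, and they are 10 of 54232 listed gene identifiers and of 30157 with any count. All 10 passed the filter on low counts in every comparison, and their counts per library ranged from 57 (Lmnb2) to 154720 (Xpo7).

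Cells came from C57BL/6 fetal livers at e12.5 to e13.5 (days of embryonic development), and the labels name no genetic change or drug in any group. They were sorted by lineage markers, CD71 (the transferrin receptor) and Ter119, an antigen of maturing red cells. S0-Low was Lin-, CD71- and Ter119-. S0-Medium was Lin-, CD71 medium and Ter119-, and S1 was Lin-, CD71 high and Ter119-. S2 was Lin-, CD71 high and Ter119 medium, S3 was Lin-, CD71 high and Ter119 high, and Lin+ held the cells with lineage markers. There were 3 replicates per population, 18 libraries in all. After sorting, every group rested for 6 h and received 500 µM 4-thiouridine (4sU) for 45 min. 4sU is a uridine analogue built into RNA as it is made, so that the captured RNA is mostly recent. Samples are labelled as separate replicates, but neither the labels nor the methods say whether the livers were separate litters or pools, so p-values measure the spread between these libraries.

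A maturing red cell condenses its chromatin, shrinks its nucleus and, in mammals, finally expels it. Lamins are filaments under the inner nuclear membrane, and Lbr and the membrane-bound products of Tmpo tether chromatin to that layer. Lbr is the tether most used early in a cell lineage and A-type lamin the one most used late. Setd8 places a single methyl group on lysine 20 of histone H4, a mark needed for chromosome compaction. Histone deacetylases remove acetyl groups that keep chromatin open, although Hdac6 acts mainly on proteins of the cytoplasm. Xpo7 carries proteins out of the nucleus, histones among them in maturing erythroblasts.

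Total counts per library ranged from 9452476 (S0-Low replicate 3) to 40567976. Levels are given as CPM, the usual scaling of read counts to library size (the cpm function of edgeR, with its TMM factors for composition), and means are followed by the SD of 3 libraries. Summed over 5 erythroid markers (Slc4a1, Alas2, Klf1, Epor, Tfrc), the libraries held 400.2 to 709.5 CPM in S0-Low and 20502 to 33671 in S3. Lin+ cells carry the label of primary erythroblasts, but held 201 to 254 CPM of these markers and 3331 to 5989.9 CPM of 8 granulocyte markers, all of which were detected. The granulocyte markers held 340.4 to 798 CPM in S0-Low (7 of 8 over 3 counts in some library) and at most 2.43 in any S3 library, where Elane, Ctsg, S100a8 and Ngp were at 0. The 8 macrophage and monocyte markers held 33.3 to 53.4 CPM in S0-Low and at most 4.37 in S3, with C1qa, C1qb, C1qc, Csf1r and Vcam1 at 0 there. Megakaryocyte markers (7 genes) held 83.1 to 174 CPM in S0-Low and 55.5 to 116 in S3. Markers of lymphocytes (8 genes) held 7.39 to 18.04 CPM in S0-Low and at most 1.13 in S3. Those of hepatocytes (7 genes) held 7.24 to 10.8 CPM in S0-Low and at most 0.379 in S3. The megakaryocyte ranges of S0-Low and S3 overlapped, and those of every other list lay apart. The part of these lists in the results was not tested. In these bulk samples fewer cells of a type and less RNA per cell cannot be told apart.

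The lamina genes moved in different directions. Between S0-Low and S3 Lmna rose 11.2-fold, Lbr 5.25-fold and Tmpo 4.18-fold, Lmnb1 was 2.08-fold higher and Lmnb2 3.75-fold lower. Under other settings the calls for Lmna, Lbr and Tmpo held in all 14, those for Lmnb1 in 7 and those for Lmnb2 in 9. The 5 genes lie on chromosomes 1, 3, 10 and 18 of GRCm38: Lmna (ENSMUSG00000028063) at chr3:88481148-88509932, Lmnb1 (ENSMUSG00000024590) at chr18:56707813-56753424, Lmnb2 (ENSMUSG00000062075) at chr10:80901363-80918245, Lbr (ENSMUSG00000004880) at chr1:181815315-181842401 and Tmpo (ENSMUSG00000019961) at chr10:91147571-91181752.

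Lmna encodes lamins A and C. It measured 39.8, 37.8 and 61.5 CPM in S0-Low replicates 1 to 3, 81.8, 109 and 164 in S0-Medium, and 170.0, 175 and 291 in S1. It then measured 215, 306 and 346 CPM in S2, 389.9, 534 and 641 in S3, and 50.7, 32.9 and 28.5 in Lin+. Every S0-Medium library lay above every S0-Low library, every S1 library above every S0-Medium library and every S3 library above every S2 library, while S1 and S2 overlapped. The difference between S3 and S0-Low was 3.49 on the log2 scale (SE 0.38, adjusted p = 1.4e-05 by the quasi-likelihood test of edgeR, Benjamini-Hochberg adjusted over 16555 genes), and S3 was higher in 3 of 3 same-numbered pairs. Of that change, 75.4% had been reached by S2. The first step, S0-Medium against S0-Low, was 1.35 (SE 0.35) and did not pass the threshold (adjusted p = 1). With the replicate number as a block it was 1.32 and passed (adjusted p = 0.038), as the only one of the 10 genes, against 0.139% of all genes called in that fit.

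Lbr encodes the lamin B receptor. Its levels were 270.5, 198 and 207 CPM in S0-Low, 234, 175 and 173 in S0-Medium, and 315, 227 and 277 in S1. They were 352, 285 and 579 CPM in S2, 1101, 839 and 1609.9 in S3, and 223, 230.3 and 293 in Lin+. S0-Low, S0-Medium, S1 and Lin+ overlapped their neighbours in the order of levels, and the S3 libraries lay above all the others. Lbr rose by 2.39 on the log2 scale from S0-Low to S3 (SE 0.34, adjusted p = 0.000107 by edgeR) and by 1.55 from S2 to S3 (SE 0.33, adjusted p = 0.00946), a 2.93-fold step. The latter call was lost without S2 replicate 1 (adjusted p = 0.0504), without S2 replicate 2 (adjusted p = 0.0543) and with only the 6 libraries compared (adjusted p = 0.131).

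Tmpo encodes the lamina-associated polypeptides 2. It measured 398, 409 and 418 CPM in S0-Low, 376, 449 and 419.6 in S0-Medium, and 530.4, 549 and 747 in S1. It measured 612, 625 and 1296 CPM in S2, 1500.5, 1209 and 2419 in S3, and 374, 305 and 296 in Lin+. S0-Low, with an SD of 9.78 CPM, lay above all Lin+ libraries and below all S1 libraries, whereas S2 and S3 overlapped through S2 replicate 3. Its log2 change from S0-Low to S3 was 2.06 (SE 0.35, adjusted p = 0.000419 by edgeR), of which 50.5% had been reached by S2. The change from S2 to S3 was 1.02 (SE 0.34) and did not pass (adjusted p = 0.0705), but did with the replicate block (1.04, adjusted p = 0.00839).

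Lmnb1, a B-type lamin, had means of 386 to 393 CPM in each population up to S2. It measured 533, 392.1 and 234 CPM in S0-Low, 466, 385 and 308 in S0-Medium, and 496, 407 and 276 in S1. It measured 439, 367 and 371 CPM in S2. In S3 it measured 529.5, 573 and 1305 CPM, and in Lin+ 484, 288 and 242. The S3 and S0-Low libraries overlapped, and S3 was higher in 2 of 3 same-numbered pairs. The log2 difference was 1.05 (SE 0.39, adjusted p = 0.0445 by edgeR). It lost the call without S3 replicate 3 (0.50, adjusted p = 0.297), without S0-Low replicate 3 (0.75, adjusted p = 0.169) and without S0-Low replicate 2 (1.01, adjusted p = 0.115), and was 0.18 with library totals in place of TMM (adjusted p = 0.67).

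Lmnb2, the other B-type lamin, was the only one of the 10 genes called lower in S3. It measured 86.4, 75.2 and 10.96 CPM in S0-Low, 66.6, 57.0 and 44.6 in S0-Medium, and 50.1, 48.1 and 53.0 in S1. It measured 26.5, 54.4 and 28.2 CPM in S2, 4.32, 19.7 and 22.0 in S3, and 75.7, 49.7 and 43.9 in Lin+. The S0-Low library with 10.96 CPM is the shallowest of all and lay inside the range of S3, so that only 2 of 3 pairs were lower in S3. The log2 difference from S0-Low was -1.91 (SE 0.66, adjusted p = 0.0346 by edgeR) and became -2.44 without S0-Low replicate 3. It missed the threshold without S0-Low replicate 1 (-1.53, adjusted p = 0.116), S0-Low replicate 2 (-1.71, adjusted p = 0.0897), S3 replicate 1 (-1.48, adjusted p = 0.0926) or S3 replicate 2 (-2.13, adjusted p = 0.0508).

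**Figure D1:**
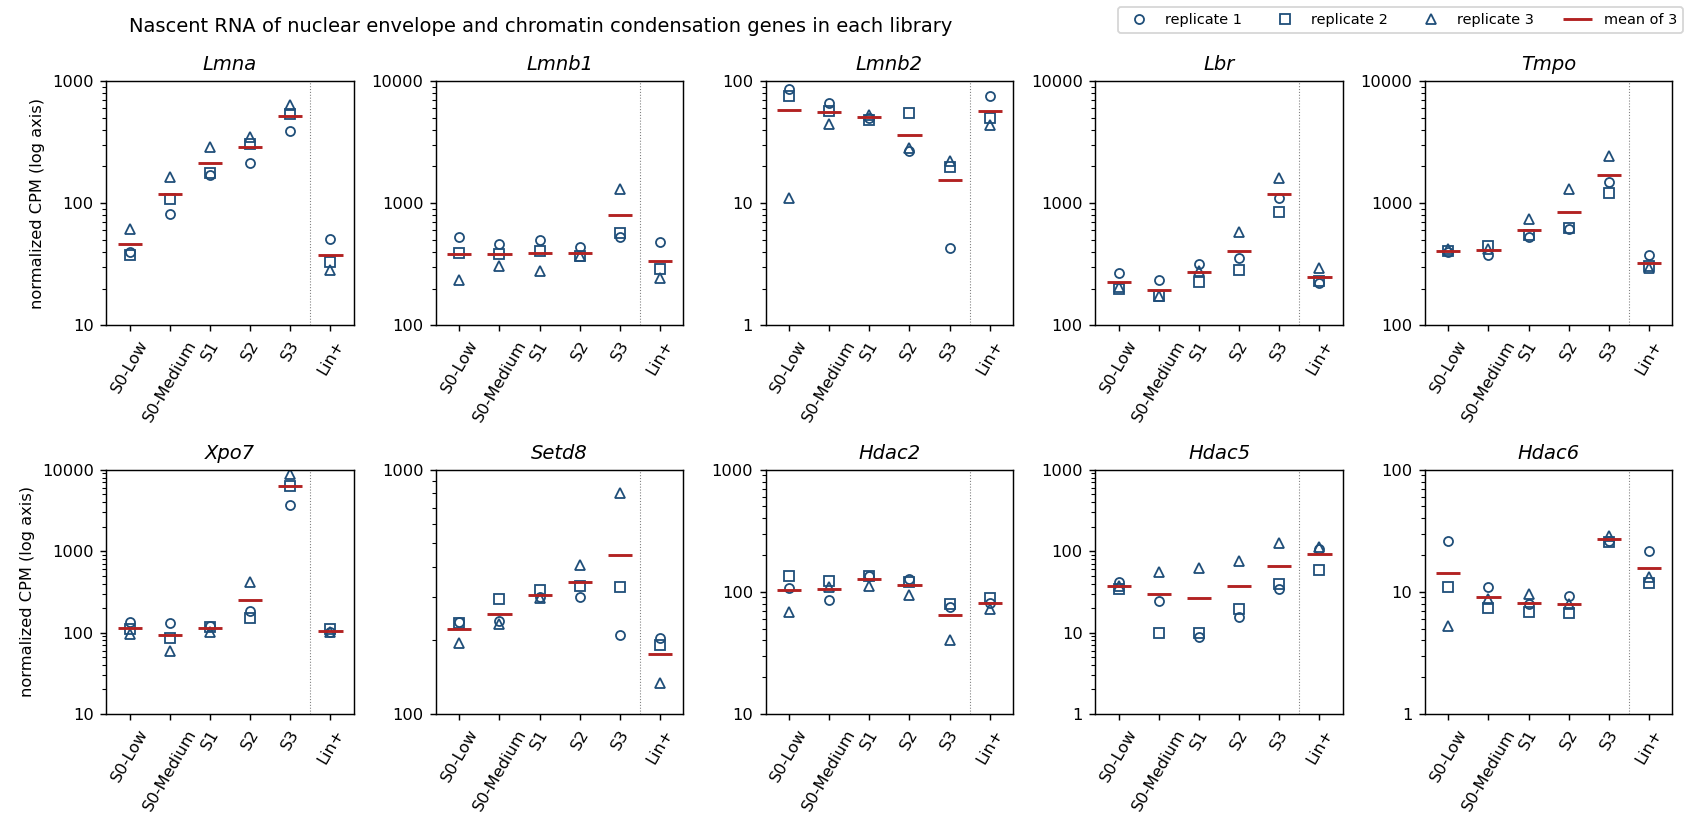
Levels of the 10 genes in each of the 18 libraries as TMM-normalized CPM on log axes, with 1 symbol per replicate and a bar for the mean of 3. Lmna is higher at each stage to S3, with S1 and S2 overlapping, Xpo7 and Lbr are highest in S3 with no overlap, and replicate 3 is the highest library for Hdac5 in S0-Medium, S1, S2 and S3.

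Per kilobase of transcript, the balance of the lamins shifted. Divided by the median length of the coding transcripts of each gene, mean levels in S0-Low were 26.1 ± 7.40 CPM per kb for Lmna, 136 ± 52.6 for Lmnb1 and 22.2 ± 15.7 for Lmnb2 (SD, n = 3). In S3 they were 293 ± 70.9 CPM per kb for Lmna, 282 ± 153 for Lmnb1 and 5.93 ± 3.72 for Lmnb2. Lbr stood at 63.4 ± 11.1 CPM per kb in S0-Low and 333 ± 110.3 in S3, and Tmpo at 123 ± 2.95 and 515 ± 190.3. The lengths used for Lmna span 785 to 3156 bases, so its level per kilobase depends on which transcripts were made.

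Ratios of counts within a library do not depend on how libraries are scaled to each other. The count of Lmna was 0.0643, 0.0809 and 0.251 times that of Lmnb1 plus Lmnb2 in the 3 S0-Low libraries, and 0.730, 0.90 and 0.483 times in S3. Its log2 value was -3.19 ± 1.05 in S0-Low, then -1.94 ± 0.81 in S0-Medium and -1.08 ± 0.79 in S1, and reached -0.59 ± 0.47 in S2 and -0.55 ± 0.46 in S3, against -3.38 ± 0.07 in Lin+ (SD, n = 3). S3 exceeded S0-Low by 2.64, in 3 of 3 pairs (exact permutation test, two-sided p = 0.1, below which 3 against 3 libraries cannot go, and 0.133 after Benjamini-Hochberg adjustment over 4 ratios). The count of Lbr was 0.437, 0.424 and 0.845 times that of the B-type lamins in S0-Low and 2.06, 1.42 and 1.21 times in S3. That log2 difference was 1.50, in 3 of 3 pairs (exact permutation p = 0.1, adjusted 0.133).

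**Figure D2:**
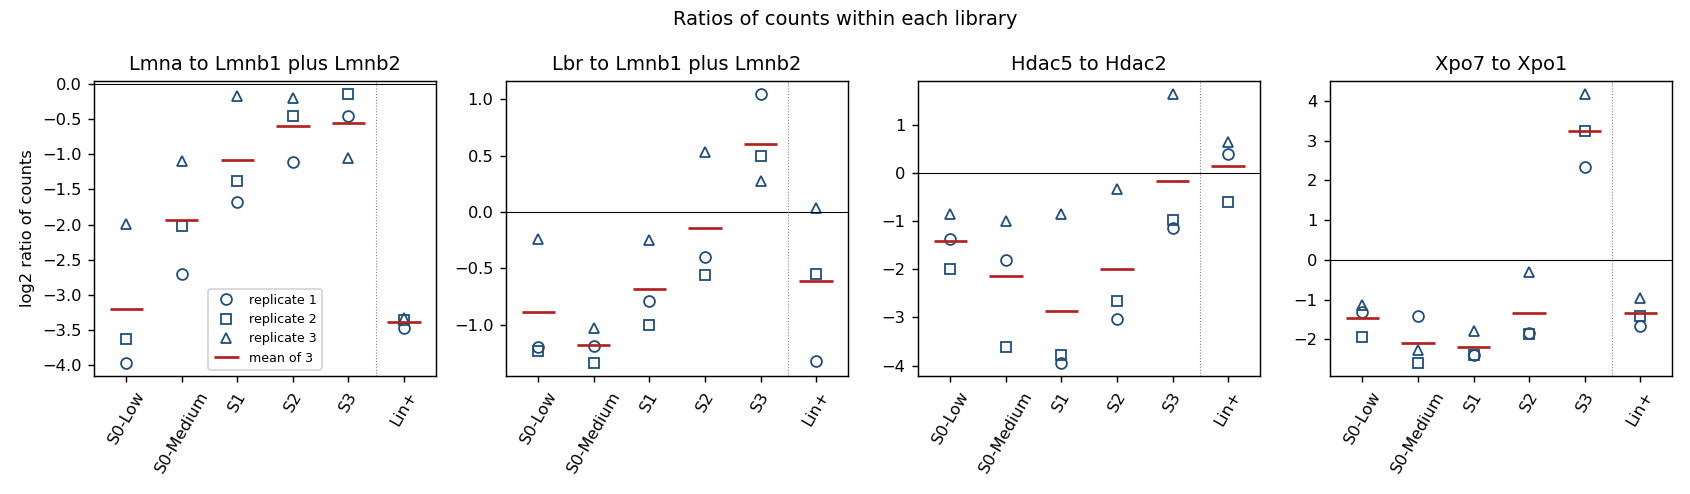
Log2 ratios of counts within each library for Lmna and Lbr over the summed B-type lamins, Hdac5 over Hdac2 and Xpo7 over Xpo1, by population, with 1 symbol per replicate and a bar for the mean of 3. The lamin ratio is higher in S2 and S3 than in every S0-Low library, and the Xpo7 ratio is above 0 in the S3 libraries alone.

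Lbr and Tmpo moved most closely together among the 5 genes: Pearson's r of log2(CPM + 0.5) over the 18 libraries was 0.909, a description only, since libraries share their population and scaling. Lmnb2 had r = -0.645 with Lbr and -0.605 with Tmpo. The 250 bases before a start site that RefSeq lists on GRCm38.p6 are printed for these 3 genes, 5′ to 3′ on the strand of the gene (minus for all). The 3 genes were picked for the direction of their change, and a link of sequence to level was not tested. Capitals mark matches on either strand to the GATA motif (A or T, then GATA, then A or G), to a CACCC-type motif (CCNCNCCC) bound by factors of the Klf family, and to CCAAT.
Lbr, chr1:181842402-181842651: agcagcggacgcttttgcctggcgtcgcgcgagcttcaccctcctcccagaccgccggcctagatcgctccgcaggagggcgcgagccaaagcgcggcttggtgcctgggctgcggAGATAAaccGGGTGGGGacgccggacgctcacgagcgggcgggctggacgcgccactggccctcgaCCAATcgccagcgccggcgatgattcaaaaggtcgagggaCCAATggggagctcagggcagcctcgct
Tmpo, chr10:91171620-91171869: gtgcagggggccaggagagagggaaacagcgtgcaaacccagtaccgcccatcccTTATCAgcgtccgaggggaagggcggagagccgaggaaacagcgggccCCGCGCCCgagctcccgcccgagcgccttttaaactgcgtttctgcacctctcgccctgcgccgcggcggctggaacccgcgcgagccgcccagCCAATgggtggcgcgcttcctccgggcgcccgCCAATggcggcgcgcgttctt
Lmnb2, chr10:80918246-80918495: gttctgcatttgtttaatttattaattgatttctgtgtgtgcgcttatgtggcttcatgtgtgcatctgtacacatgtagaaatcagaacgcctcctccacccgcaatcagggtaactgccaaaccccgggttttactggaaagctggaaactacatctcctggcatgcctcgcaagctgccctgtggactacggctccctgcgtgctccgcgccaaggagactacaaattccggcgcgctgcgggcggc
The windows of Lbr and Tmpo each held 1 GATA match, 1 CACCC-type match and 2 CCAAT matches, and that of Lmnb2 held none of them. Of 32851 promoters of the same length, 26.5% held a GATA match, 45.9% a CACCC-type match and 33.8% CCAAT. Lmna, which also rose, held 0, 2 and 0 matches at its first listed start, a second listed start of Tmpo held none, Setd8 held 1, 1 and 4 at its first, and Hdac2 held none. Hdac5 held 0, 1 and 2 and Hdac6 held 0, 0 and 2. The GC content was 69.6% for Lbr, 70.8% for Tmpo and 52.8% for Lmnb2. A match is a run of letters and not a site of binding.

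Xpo7 (ENSMUSG00000022100, chr14:70662126-70770864) had the largest change of the 10 genes, of which 19.6% on the log2 scale had been reached by S2. It measured 134, 109.7 and 94.8 CPM in S0-Low, 131, 86.8 and 60.0 in S0-Medium, and 121, 118 and 101 in S1. It measured 185, 149 and 414 CPM in S2, 3707, 6275 and 8892 in S3, and 103, 109.98 and 103 in Lin+. Every S2 library lay above every S1 library and every S3 library far above every S2 library. In raw counts, Xpo7 took 0.0121% to 0.0147% of each S0-Low library and 0.272%, 0.425% and 0.515% of the S3 libraries. Xpo7 rose 55.8-fold from S0-Low to S3 (5.80 on the log2 scale, SE 0.51, adjusted p = 2.6e-06 by edgeR) and 25.3-fold from S2 to S3 (4.66, SE 0.48, adjusted p = 0.000129). Both calls held under all 14 other settings, with log2 values of 4.93 to 6.06 and of 4.15 to 5.23.

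Of the 540 genes called higher in S3 than in S2, 37 had a larger log2 change than Xpo7 and 0 a smaller p. Of the 2220 called higher in S3 than in S0-Low, 266 had a larger change and 21 a smaller p. Its count was 0.401, 0.260 and 0.455 times that of Xpo1, the main export receptor of most cells, in S0-Low, and 5.02, 9.43 and 17.9 times in S3. The log2 ratio differed by 4.71 (exact permutation p = 0.1, adjusted 0.133, higher in 3 of 3 pairs). Xpo7 overlaps Dok2, an adaptor gene of myeloid cells on the other strand, and whether counting used the strand is not given in the sources used here. Dok2 itself measured 13.8 to 57.8 CPM in S0-Low and 0 to 6.45 in S3. Of the 31-base stretches in Xpo7 transcripts, 4.09% also occur elsewhere in the mm9 genome.

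Setd8 (ENSMUSG00000049327, chr5:124439930-124462311) is the writer of monomethylated H4K20. It measured 238, 236 and 195 CPM in S0-Low, 239.7, 296 and 234 in S0-Medium, and 302, 323 and 298 in S1. It measured 302, 334 and 409 CPM in S2, 210.3, 331 and 806 in S3, and 204, 191 and 134 in Lin+. S3 replicate 1 lay inside the range of S0-Low and S3 replicate 3 above all other libraries, and S3 was higher than S0-Low in 2 of 3 pairs. The log2 difference of 1.01 (SE 0.38) passed narrowly (adjusted p = 0.0478 by edgeR) and under only 4 of 14 other settings. It fell short without S3 replicate 3 (0.27, adjusted p = 0.51), without S0-Low replicate 1, 2 or 3 (adjusted p = 0.110, 0.113 and 0.133) and with library totals (0.09, adjusted p = 0.832). Of the 31-base stretches in its transcripts, 33.8% also occur elsewhere in the mm9 genome, so its counts may include reads that other loci could give, and how such reads were assigned was not tested.

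None of the 3 deacetylases passed the threshold between S0-Low and S3 by edgeR, against 35.8% of all genes called, and 0 had an unadjusted p under 0.05, against 47.4% of all genes. Hdac2 (ENSMUSG00000019777, chr10:36974297-37001889), a nuclear class I enzyme, measured 107, 135 and 67.8 CPM in S0-Low and 128, 121 and 94.7 in S2. In S3 it measured 74.6, 79.2 and 40.1 CPM, below the same-numbered library of S0-Low in 3 of 3 pairs and below every S2 library. The log2 difference was -0.68 from S0-Low (SE 0.33, adjusted p = 0.116 by edgeR) and -0.82 from S2 (SE 0.33, adjusted p = 0.126). The first passed the threshold under 6 of 14 other settings, among them library totals (-1.47, adjusted p = 0.00501) and without S0-Low replicate 3 (-0.96, adjusted p = 0.0353), and the second passed with the replicate block (-0.86, adjusted p = 0.0274).

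Hdac5 (ENSMUSG00000008855, chr11:102195747-102230172), a class II enzyme that shuttles between nucleus and cytoplasm, differed widely between replicates of a population. It measured 41.6, 33.9 and 37.5 CPM in S0-Low, 24.6, 10.0 and 55.6 in S0-Medium, and 8.82, 9.78 and 61.5 in S1. It measured 15.7, 19.3 and 75.6 CPM in S2, 33.9, 40.0 and 124 in S3, and 107, 58.9 and 112 in Lin+. Replicate 3 was the highest of 3 in 4 of the 5 erythroid populations for Hdac5, as it was in 4 for Tmpo and in 5 for Lmna. It was the lowest of 3 in 4 populations for Hdac2 and in 3 for Xpo7, Lmnb1 and Setd8. In replicates 1 and 2 the levels were lowest in S1 and higher again in S3. The log2 difference between S3 and S0-Low was 0.81 (95% interval -0.94 to 2.56, adjusted p = 0.455 by edgeR), and it was -0.04 without S3 replicate 3. The count of Hdac5 relative to Hdac2 was 0.389, 0.252 and 0.552 in S0-Low and 0.455, 0.506 and 3.10 in S3 (log2 difference 1.24, exact permutation p = 0.3).

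Hdac6 (ENSMUSG00000031161, chrX:7930116-7948047), which deacetylates tubulin, had 63 to 1016 counts per library. It measured 26.3, 10.999 and 5.23 CPM in S0-Low, 9.27, 6.69 and 7.89 in S2 and 26.2, 25.6 and 28.9 in S3. All S3 libraries lay above all S2, S1, S0-Medium and Lin+ libraries, while S0-Low replicate 1 lay inside the range of S3. The log2 difference was 0.92 from S0-Low (95% interval -0.35 to 2.20, adjusted p = 0.238 by edgeR) and 1.76 from S2 (95% interval 0.46 to 3.07, adjusted p = 0.0822). The latter passed with DESeq2 (1.89, adjusted p = 0.000905) and when at least 10 counts were required in every library (1.69, adjusted p = 0.0379).

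Counted over the 10 genes, 7 passed the threshold between S3 and S0-Low, against 35.8% of all genes tested. Called higher in S3 were 6 (Lmna, Lmnb1, Lbr, Tmpo, Xpo7 and Setd8), against 13.4% of all genes, and lower was 1 (Lmnb2), against 22.4%. Their median log2 change was 1.03, beside -0.54 over all genes. The latter depends on which genes are tested, and was -0.10 with at least 10 counts required in every compared library and -0.077 without the filter on low counts. Under the first of these filters 4 of the 10 were higher and 2 lower, against 19.2% and 19.3% of all genes. With library totals in place of TMM the median of all genes moved to -1.36. Then 4 of the 10 were higher (Lmna, Lbr, Tmpo and Xpo7), against 6.98% of all genes. Lower were 2 (Lmnb2 and Hdac2), against 37.6%. Among all genes that scaling moved the share of calls that were higher from 37.4% to 15.7%.

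Between S3 and S2, 2 of the 10 were called (Lbr and Xpo7), both higher, against 9.35% of all genes called, 3.26% higher and 6.09% lower. With the replicate number as a block, by which these libraries pair, 5 were called, against 18.6% of all genes in that fit: Lmna (0.85, adjusted p = 0.00668), Lbr, Tmpo and Xpo7 higher and Hdac2 lower. With DESeq2 5 were also called (Lmnb1, Lbr, Tmpo, Xpo7 and Hdac6, all higher), against 20.1% of all genes. With library totals 3 were called (Lbr and Xpo7 higher, Hdac2 lower), against 15.4% of all genes, and the share of calls among all genes that were higher moved from 34.9% to 11.3%. At the 3 earlier steps edgeR called none of the 10, against 0% of all genes at each. The genes at an unadjusted p under 0.05 were Lmna at the first step, Lmna from S0-Medium to S1 (log2 change 0.84) and Xpo7 from S1 to S2 (1.13), 1 of 10 at each step against 3.26%, 6.86% and 4.03% of all genes. DESeq2 also called 0 at each of these steps, against 0.284%, 2.42% and 0.888% of all genes.

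Between Lin+ cells and S0-Low none of the 10 genes was called by edgeR, against 0.715% of all genes. There 0 had an unadjusted p under 0.05, against 9.85% of all genes, and DESeq2 called 0, against 3.47%. The largest difference was that of Hdac5 (log2 1.30, 95% interval -0.35 to 2.96), whose libraries in Lin+ lay above all those of S0-Low. The Tmpo libraries of Lin+ lay below all those of S0-Low, and for Lmna the difference was -0.31 (95% interval -1.04 to 0.41). Between Lin+ and S3, 7 passed, against 42.2% of all genes (28.2% higher in Lin+ and 14.1% lower). Lmnb2 was higher in Lin+ (1.88, SE 0.63, adjusted p = 0.0231 by edgeR) and Lmna, Lmnb1, Lbr, Tmpo, Xpo7 and Setd8 were lower. With library totals Hdac2 was also higher, and Lmnb1 and Setd8 were not called. The call of Lmnb2 was lost without S3 replicate 1 or Lin+ replicate 1, that of Lmnb1 without S3 replicate 3, Lin+ replicate 2 or Lin+ replicate 3, and that of Setd8 without S3 replicate 3. This contrast shares its S3 libraries with those against S0-Low and S2.

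**Figure D3:**
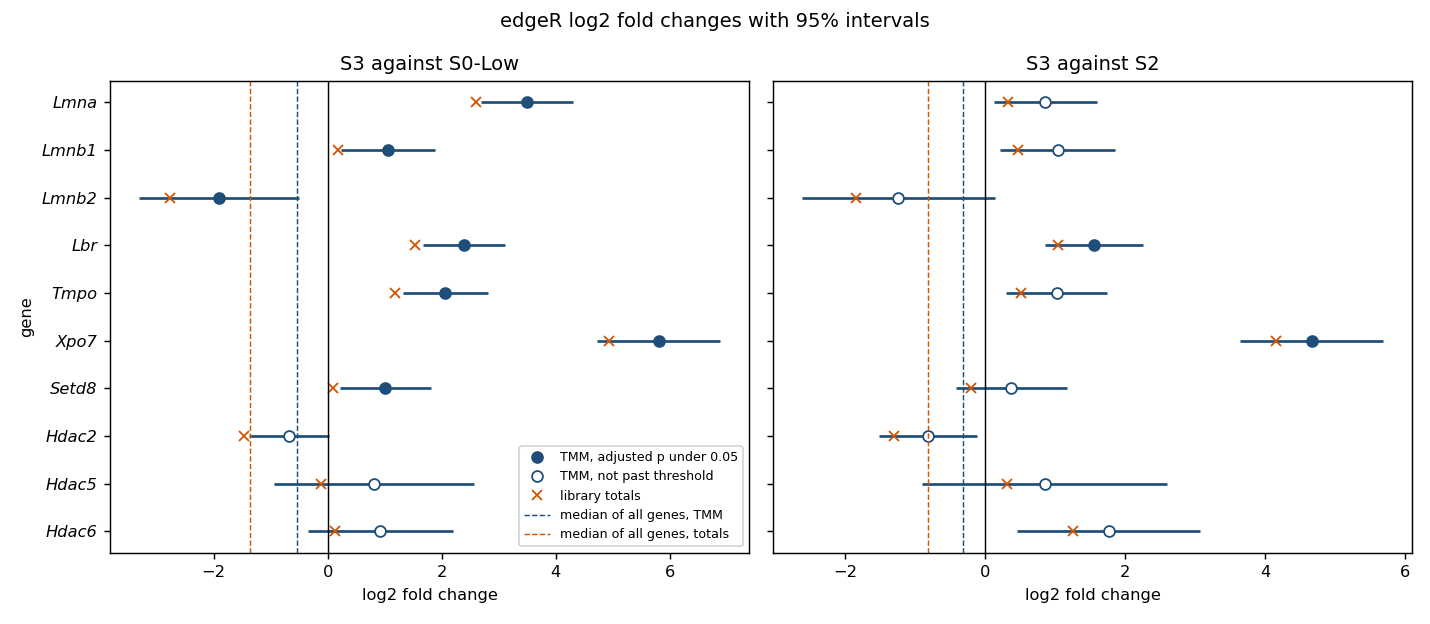
Log2 fold changes of the 10 genes by edgeR with 95% intervals for S3 against S0-Low and S3 against S2, with filled points past the threshold, crosses for library totals in place of TMM and dashed lines at the median of all genes under each scaling. Xpo7 stands at 5.80 and 4.66, and the crosses lie to the left of the points for every gene.

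Each gene can also be placed by the genes whose levels ran most like its own over the 18 libraries, among 10720 genes. Xpo7 ran most like Ube2f (r = 0.995), an enzyme that conjugates Nedd8, and the glucose transporter Slc2a1 (0.986). Lmna ran most like Cldn13 (0.979), Trim10 (0.976) and Fech (0.9749), the last enzyme of haem synthesis. Tmpo ran most like Kif15 (0.984), Top2a and Kif18a (both 0.983), genes of dividing cells, and Lbr most like Kctd9 (0.978), Eef2k (0.974) and Artn (0.964). The closest genes were Sae1 for Lmnb1 (0.912), Msl1 for Lmnb2 (0.923), Samd1 for Setd8 (0.934), Gnl2 for Hdac2 (0.941), Tsc22d4 for Hdac5 (0.939) and Trp53bp1 for Hdac6 (0.887). The libraries share populations, so these values describe likeness only.

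Of 103 further genes of the same machinery, listed by function, 100 were found and 99 tested between S3 and S0-Low. The condensins are the ring complexes that compact chromosomes. All 8 subunits were higher in S3, against 13.4% of all genes, with a median log2 change of 2.24 beside -0.54 over all genes. With library totals 7 of 8 were higher, against 6.98% of all genes. Ncaph, which closes the ring of condensin I, had 71.3 ± 18.4 CPM in S0-Low and 545 ± 248 in S3 (SD, n = 3; log2 2.93, SE 0.39, adjusted p = 7e-05 by edgeR). Smc2 and Smc4, the shared arms of the ring, changed by 2.06 (SE 0.31) and 2.60 (SE 0.36). Between S3 and S2, 3 of the 8 were called higher (Smc4, Ncaph and Ncapd3), against 3.26% of all genes, and 7 with the replicate block, against 7.3%. None was called without S2 replicate 1, S2 replicate 2 or S3 replicate 3, against 0.934%, 1.02% and 1.5% of all genes called higher, nor with only the 6 libraries compared, against 0.63%.

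Counts for the other lists are read against 13.4% higher and 22.4% lower over all genes with TMM, where 2220 genes were higher and 3712 lower, and against 1156 higher and 6228 lower with library totals. Of 18 further genes of the lamina and inner membrane, 4 (22.2%) were higher and 3 (16.7%) lower in S3 than in S0-Low (2 and 6 with library totals), with a median log2 change of -0.02. Narf, whose product binds prelamin A, measured 47.0 to 232 CPM in S0-Low and 535 to 1836 in S3 (log2 3.10, SE 0.83, adjusted p = 0.00974 by edgeR). Syne2, a nesprin that links the nucleus to the cytoskeleton, measured 5.90 to 39.9 CPM in S0-Low and at most 0.690 in S3 (adjusted p = 0.00974). Syne2 and Hdac9 were left out of the test when at least 10 counts were required in every compared library. Of 27 nuclear pore genes 8 were higher and 0 lower, but 1 and 9 with library totals. Nup133, a scaffold nucleoporin, was higher under both (1.72, SE 0.29, with TMM and 0.88 with totals).

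Of 26 transport receptors and Ran factors 6 were higher and 2 lower, but 0 and 9 with library totals. Ipo13, an import receptor, stood at 1.78 (SE 0.48) and missed the threshold with library totals and with only the 6 libraries compared. Ipo8, another, stood at -1.30 (SE 0.44) and ranged from -0.92 to -2.06. It passed under 9 of 14 other settings, and not without S0-Low replicate 1, S0-Low replicate 2, S3 replicate 2 or S3 replicate 3, nor with only the 6 libraries compared. Of 8 other deacetylases, Hdac11 was higher (3.18, SE 0.71) and Hdac7 and Hdac9 were lower (1 higher and 3 lower with library totals). Hdac9 had 20.9 to 88.3 CPM in S0-Low, 79.3 to 156 in Lin+ and at most 1.08 in S3 (adjusted p = 0.0126 by edgeR). Of 12 genes of H4K20 methylation and heterochromatin, 2 were higher and 2 lower (1 and 5 with library totals). Kmt5c, which adds further methyl groups to the mark of Setd8, had 53.4 ± 4.78 CPM in S0-Low and 249 ± 98.5 in S3 (2.22, SE 0.30, adjusted p = 6.8e-05). Ehmt2, an H3K9 methyltransferase, had 94.8 to 114 CPM in S0-Low and 0 to 19.8 in S3 (adjusted p = 0.0121). That call was lost with DESeq2 and with only the 6 libraries compared, and the filter of at least 10 counts in every compared library left the gene out.

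Over all 99 genes 29 (29.3%) were higher and 9 (9.1%) lower, against 13.4% and 22.4% of all genes. With library totals 12 were higher and 32 lower, against 6.98% and 37.6%. With at least 10 counts required in every compared library 34 of 94 were called, 24 of them higher, against 38.5% and 19.2%. The median log2 change with TMM was 0.28 beside -0.54 over all genes (-0.10 with that filter and -0.077 without the filter on low counts). Between S3 and S2, 3 were higher and 3 lower, near the 3.26% higher of all genes and below the 6.09% lower. With the replicate block 15 were higher and 15 lower, against 7.3% and 11.3% of all genes in that fit, and with library totals 1 was higher and 15 lower, against 1.74% and 13.7%. Between Lin+ and S0-Low edgeR called 0 of 100, against 0.715% of all genes, with 12 at an unadjusted p under 0.05 against 9.85%. With DESeq2 1 was called, against 3.47% of all genes, and 1 without the filter on low counts, against 1.3%. With only the 6 libraries compared 1 was called, against 3.6%, and 1 with the replicate block, against 1.93%.

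**Figure D4:**
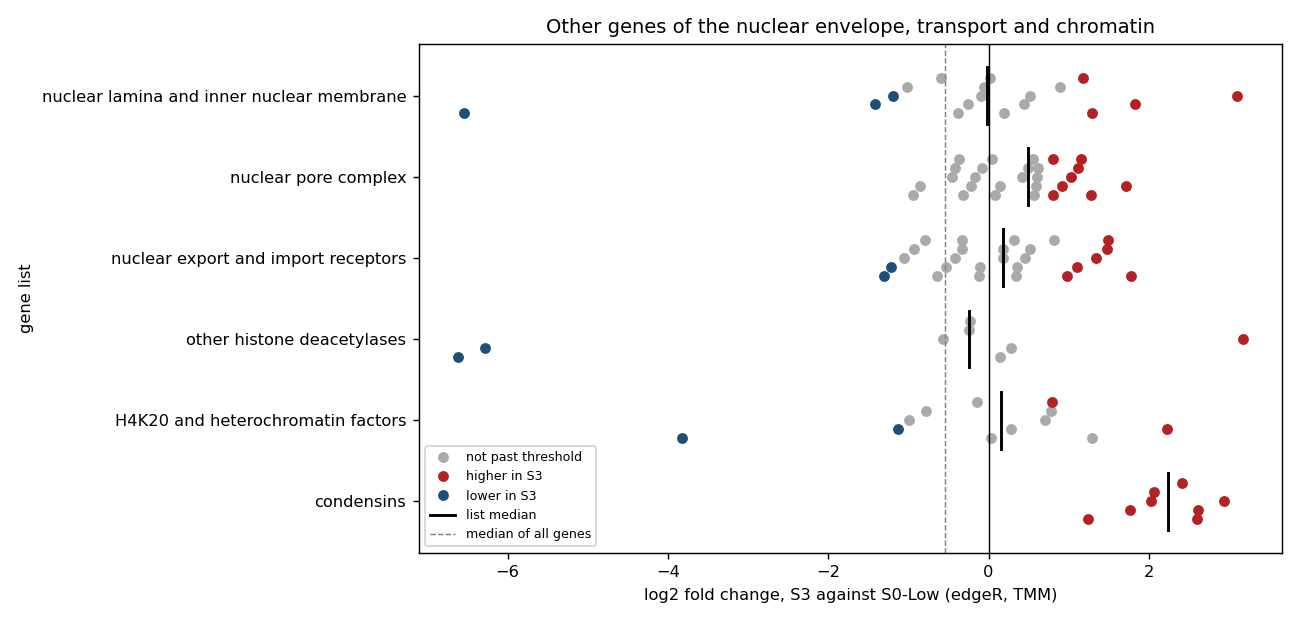
Log2 fold changes of 99 further genes between S3 and S0-Low by edgeR with TMM, 1 point per gene in 6 lists, coloured by call, with a bar at the median of each list and a dashed line at the median of all genes. The condensins lie to the right of 0 as a list of 8, while Syne2, Hdac7 and Hdac9 lie beyond -6.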

How the data were processed

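RNA labelled with 4sU was sequenced in 18 libraries, 3 of each of 6 sorted fetal liver populations, grouped by the submitted labels. The authors made stranded libraries by PCR without molecular identifiers, assigned reads to transcripts with Kallisto (version 0.43.0 and GRCm38, per the submitters' processing notes) and deposited whole-number counts per gene, neither normalized nor pooled. The transcript set, the treatment of introns and the use of strand are not given in the sources used here. Reads shared by near-identical genes are split by estimate.

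From these counts, the 15 erythroid libraries entered 1 model in edgeR 4.0.16 (R 4.3.3) with population as the only factor, TMM scaling and filterByExpr (16555 genes). Comparisons with Lin+ used all 18 libraries (17755 genes). The two-sided quasi-likelihood test was called at an adjusted p under 0.05 (Benjamini-Hochberg over all genes tested). Standard errors were taken as the log2 fold change over the root of F. CPM levels use factors over 18 libraries, folds those of the 15. Library totals of 9452476 to 40567976 set the precision, and counting error only is covered by counts. Ratios within a library used a pseudocount of 0.5 and exact permutation tests. The steps in edgeR were also run on simulated data with known changes, and the outcome is not given here. That simulation changed a small set of genes, up or down at random, with independent replicates. It cannot show how the scaling behaves where many genes change.

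Deviations from the population means were correlated between same-numbered libraries, and libraries were taken to pair where every r was over 0.1. That held in each step, in S3 against S2 and in Lin+ against S0-Low (every r at least 0.170). In S3 against S0-Low r was 0.0806, 0.131 and 0.105, and in Lin+ against S3 it was 0.0905, 0.121 and 0.160. These are all positive but not all over the cutoff, so these comparisons were not taken as paired. No source says what a shared number stands for. Where the numbers pair, a blocked value is given if it changes a call.

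The genes and lists were chosen with earlier results of these data known. The text names all 10 genes, the discussed markers and the partners in ratios. Also named are the 3 genes most like each of the 10 (fewer for some). From each further list the largest called rise and fall are named, among genes that averaged 100 normalized counts or more in the population where they were higher. Other listed genes (Smc2, Smc4, Ncapd3, Hdac7) and Dok2 were named after their values were seen. Alternatives were DESeq2 1.42.0, RLE factors, library totals, other filters, a replicate block, other sets of libraries and leaving out each library. Positions are from RefSeq on GRCm38. Transcript lengths and shared stretches are from GENCODE on mm9, and no mm9 coordinate is given. Syne1, Syne3 and Nup62 were not matched in the table. The result for 1 gene of the erythroid marker list is left out and was not added to that list's sums. Promoter sequences of Lmnb1 and Xpo7 are not used here.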

Additional observations from a re-analysis of the deposited data

How the results depend on the processing

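Of the counts of genes called and the ratios, 132 of 141 alternative values stayed within 1.5 times the main count or kept their direction. That tally is not a measure of stability. A main count of 0 had only to stay at 0, and the ratio differences under the block equal the main ones by arithmetic. Which genes were called, and in which direction, did not enter. Between S3 and S0-Low the other listed genes counted as unchanged with library totals (44 called beside 38). Their 29 higher and 9 lower had become 12 and 32. Other listed genes between S3 and S2 were left out of the tally. The number of the 10 genes called between S0-Medium and S0-Low was 0 and became 1 with the replicate block (Lmna), against 0.139% of all genes. Between S3 and S2 it was 2 and became 5 with DESeq2 (20.1% of all genes called), 5 with the replicate block (18.6%) and 1 with only the 6 libraries compared (0.823%), and it was 1 to 3 when 1 library was left out. Between S3 and S0-Low it was 7 and became 4 with only the 6 libraries compared (28.6% of all genes called), where fewer libraries estimate the spread, and was 4 to 6 when 1 library was left out (4 without S0-Low replicate 2, with 26.4% of all genes called, where the calls lost were those of Lmnb1, Lmnb2 and Setd8). The other listed genes called in this comparison numbered 38 and became 23 with only the 6 libraries compared. For these 2 last counts the replicate block, by which S3 and S0-Low libraries did not clearly pair, gave 8 and 49, with 42.4% of all genes called. Beside the counts given here and in the results above it changed no call of the 10 genes in the comparisons that pair, and the differences in ratio were the same under the block, with an exact sign-flip p of 0.25, the smallest that 3 pairs allow. Of the single log2 changes, those that turned sign were not past the threshold: Hdac5 between S3 and S0-Low was -0.11 with library totals and -0.038 to 1.12 with 1 library left out (lowest without S3 replicate 3), Setd8 between S3 and S2 was -0.21 with library totals and -0.37 to 0.70 with 1 left out (lowest without S3 replicate 3), and Hdac5 between S3 and S2 was -0.00435 to 1.91 (lowest without S3 replicate 3). The ratio differences kept their direction in each alternative and ranged over the libraries left out from 2.26 to 3.24 for Lmna, 1.28 to 1.82 for Lbr, 0.34 to 1.73 for Hdac5 and 4.25 to 5.16 for Xpo7. Where no value above shows it, the cause was not tested. Between erythroid replicates edgeR estimated a biological coefficient of variation of 0.795. Without the reads, it was not tested how introns and shared stretches were counted.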
